A study of Mus musculus with 74 samples.

Results

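Goblet cells are the mucus-secreting cells of the gut epithelium. The 9 genes described here, Muc2, Tff3, Spink4, Fcgbp, Clca1, Zg16, Agr2, Spdef and Creb3l1, were taken by symbol from the 24015 gene symbols of the RNA-seq count table and followed in all 31 RNA libraries, which fall into 15 groups. All 9 members passed the filter on low counts, both in the embryonic and in the adult libraries. The symbol Clca1 needs care, because the table uses older names for this family, which has 6 rows. In RefSeq, the older symbol Clca3 belongs only to the gene now called Clca1, which is the goblet cell gene also known as gob-5, and the symbol Clca1 was also used for the gene now called Clca3a1. The row Clca1 is therefore reported as the member that the symbol gives, and the row Clca3, added after the table's symbols were seen, is reported beside it and kept out of every count of members.

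The mucus layer of the intestine is built on Muc2, a gel-forming mucin that is assembled into large polymers in the goblet cell before release. Fcgbp, Zg16, Clca1 and the trefoil peptide Tff3 are secreted with it, and Spink4 encodes a secreted protein of the Kazal-type protease inhibitor family. Agr2 is a protein disulfide isomerase of the endoplasmic reticulum that is needed to make Muc2. Spdef, an Ets-family transcription factor, and Creb3l1, a membrane-bound transcription factor of the endoplasmic reticulum, act in the maturation of secretory cells. Glandular stomach also makes mucus, with a partly different set of genes that includes Muc5ac, Muc6, Tff1 and Tff2.

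The wild-type embryos were CD1 mice without treatment, from which forestomach (the squamous part of the stomach), hindstomach (the glandular part) and small intestine were taken at E12, E14 and E16, and small intestine also at E18. The labels call the small intestine at E12 and E14 midgut. Libraries labelled Cdx2-/- came from B6;129 mixed-background mice and small intestine only. By label they lack the intestinal homeodomain factor Cdx2. They were Cdx2f/f; Shh-Cre embryos without treatment, labelled as deleted at E10 and taken at E16 (3 libraries). Others were Cdx2f/f; Villin-Cre embryos with an oral gavage of 5 mg tamoxifen as treatment, labelled as deleted at E13 and taken at E16 or as deleted at E15 and taken at E18. The last were Cdx2f/f; Villin-Cre adults given 1 mg tamoxifen on 5 days and killed 3 days after the last injection. The adult controls were Cdx2f/f mice without Cre that received sunflower oil. The adult mice were also of the B6;129 mixed background, and their libraries hold ileal villi. Every group other than the E10-deleted one has 2 libraries. Embryonic knockout and wild-type groups thus differ in strain as well as in genotype, those labelled as deleted at E13 and E15 also in tamoxifen, which the wild types did not receive. The adult groups differ in tamoxifen as well as in Cre, so that these cannot be told apart. Both Cre drivers act in epithelium, and Shh-Cre acts in other Shh-expressing tissues too. Tissue of E12 to E16 was sorted for the epithelial protein Epcam, whereas E18 and adult villi were released with EDTA and not sorted. The labels do not say whether replicates are separate animals, so p-values measure only the spread between these samples, which may be technical. In bulk libraries, fewer goblet cells and less RNA per goblet cell cannot be told apart.

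Total counts ran from 5970227 to 62463167 per library, with a median of 21910062. The smallest libraries were those of E16 forestomach, and 3 counts corresponded to at most 0.463 CPM in any library. CPM is the depth-scaled count, here taken over the library size after TMM scaling, and levels are not compared between genes, because no gene lengths were used. Cdx2 itself averaged 19.8 ± 6.84 CPM (SD, n = 3) in the E10-deleted libraries against 207 ± 15.2 CPM (n = 2) in E16 wild type. It was at 215 ± 3.46 CPM in the libraries labelled as deleted at E13, at 380 ± 12 CPM in those labelled as deleted at E15 and at 203 ± 4.63 CPM in E18 wild type, and at 467 ± 7.26 CPM against 245 ± 4.41 CPM in the adult pair, so that the count of the targeted gene goes against these 3 labels. Whether the counted reads lie in the deleted part of the gene is not given in the sources used here. The replicate pairs of E18 wild type and of the libraries labelled as deleted at E13 were the closest of all, with a chi-square per degree of freedom of 1.5 and 2.4 over genes, while other pairs ran from 4.8 to 123.

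Promoter sequence of the RefSeq annotation matched 5 members, among them the row Clca1 by the gene now called Clca3a1, and Tff3, Spink4, Zg16 and Creb3l1 were not matched. For 4 of them the 250 bases before the gene start (GRCm38.p6) are shown, because these genes moved in opposite ways in the E10-deleted libraries: Muc2 (chr7:141690090-141690339, plus strand) and Fcgbp (chr7:28070986-28071235, plus strand) were lower, and Agr2 (chr12:35992675-35992924, plus strand) and Spdef (chr17:27728952-27729201, minus strand) were higher. The counts were made on another build, named as mm9 in the submitters' processing notes. Each sequence is written 5′ to 3′ on the strand of the gene and ends at the base before the start. Capitals mark matches, on either strand, to the letters TTTATG or TTTATT (of the CDX type), TGTTTAC or TATTTAC (FOX type), CAGCTG (an E-box) and TGACGT (CRE type), none of which overlap here.
Muc2: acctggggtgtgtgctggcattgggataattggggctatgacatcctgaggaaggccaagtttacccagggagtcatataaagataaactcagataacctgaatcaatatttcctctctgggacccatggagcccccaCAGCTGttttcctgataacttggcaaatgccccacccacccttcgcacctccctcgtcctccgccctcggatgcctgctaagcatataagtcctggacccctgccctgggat
Fcgbp: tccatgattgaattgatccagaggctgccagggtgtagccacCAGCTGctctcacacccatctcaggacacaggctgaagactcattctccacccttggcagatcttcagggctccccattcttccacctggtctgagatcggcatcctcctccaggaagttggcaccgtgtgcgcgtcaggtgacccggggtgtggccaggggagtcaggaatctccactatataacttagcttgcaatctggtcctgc
Agr2: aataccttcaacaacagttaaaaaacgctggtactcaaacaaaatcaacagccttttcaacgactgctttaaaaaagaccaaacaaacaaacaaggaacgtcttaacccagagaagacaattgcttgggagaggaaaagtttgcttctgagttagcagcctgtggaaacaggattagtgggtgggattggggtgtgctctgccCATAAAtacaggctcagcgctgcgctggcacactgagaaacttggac
Spdef: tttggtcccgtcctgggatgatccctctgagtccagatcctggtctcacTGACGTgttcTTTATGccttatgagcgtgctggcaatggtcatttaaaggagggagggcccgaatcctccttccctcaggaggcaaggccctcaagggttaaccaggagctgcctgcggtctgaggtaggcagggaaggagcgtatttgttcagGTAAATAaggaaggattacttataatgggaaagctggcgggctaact
In the Muc2 and Fcgbp sequences the only matches were to CAGCTG, 112 and 208 bases before the start, a word that 13% of 32851 RefSeq promoters of this length hold. Agr2 held 1 match to TTTATG, 47 bases before the start, and Spdef held TTTATG at 191 bases, TATTTAC at 47 bases and TGACGT at 201 bases. The promoter matched to the row Clca1, not shown, held 1 match to TTTATT, 184 bases before the start. TTTATG is found in 10.8% of the promoters, TTTATT in 18.1%, TGTTTAC in 3.2%, TATTTAC in 2.7% and TGACGT in 6.5%. A match is a description of letters and not of binding.

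In wild-type small intestine most of the goblet cell genes rose between E14 and E16, some of them, such as Tff3 and Fcgbp, from levels already measurable at E14. From E14 to E16, 8 of the 9 members rose and none fell, beside 13.7% of all genes tested that rose and 25.6% that were called in either direction, and the median log2 fold change was 5.31 over the members and -0.08 over all genes. The exception was the row Clca1, at 1.29 and 1.5 CPM at E14 and 4.33 and 1.58 CPM at E16 (log2 fold change 1.09 ± 1.09, SE, adjusted p = 0.455). Between E12 and E14, where 16.2% of genes were called, only Fcgbp and Creb3l1 rose, and both calls were lost when only the groups compared were fitted (adjusted p = 0.105 and 0.515). From E16 to E18, where 42.1% of genes were called and 20.1% rose, Muc2, Fcgbp and Zg16 rose further, Creb3l1 fell, and the other 5 members were not called. Markers of other cells moved with the step from E14 to E16. Enterocyte markers went from 722 to 729 CPM in sum to 11478 to 12007 CPM (6 of 7 rose). Paneth markers went from 1.03 to 1.58 CPM to 91.8 to 98.7 CPM (5 of 6 rose). Mesenchyme and muscle markers went from 260 to 305 CPM to 1408 to 1507 CPM (7 of 9 rose). All 3 endothelial markers rose too, and the part of these cells in the members' values was not tested.

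Among the secreted proteins, the mucin Muc2 had 0.177 and 0.276 CPM at E14, 32.1 and 23.9 CPM at E16 and 496 and 507 CPM at E18. The libraries of each stage lay wholly above those of the stage before, and Muc2 rose by a log2 fold change of 7.05 ± 0.90 (adjusted p = 5.18e-06) and then by 4.16 ± 0.65 (adjusted p = 2.01e-05). Fcgbp, a large mucus protein, moved earlier: it had 1 and 55 counts at E12, or 0.0338 and 1.75 CPM, then 28.9 and 38.9 CPM at E14, 1325 and 1072 CPM at E16 and 3284 and 3196 CPM at E18. It rose at each of these steps, by log2 fold changes of 5.21 ± 0.61 (adjusted p = 6.34e-06), 5.15 ± 0.54 (adjusted p = 4.33e-07) and 1.44 ± 0.46 (adjusted p = 0.0121). With the uneven E12 counts, the first of these fold changes ran from 4.27 to 9.76 over the alternatives. Zg16, a lectin-like secreted protein, had 0 counts in both E14 libraries and reached 106 and 88.7 CPM at E16, which is at least 1220-fold higher when 3 counts per library are taken as the floor. It then reached 1635 and 1559 CPM at E18, a further log2 fold change of 4.03 ± 1.11 (adjusted p = 0.00536), a call that was lost with DESeq2 (adjusted p = 0.0644). The trefoil peptide Tff3 differed from these in being measurable from the start, with 20.9 and 21.3 CPM at E12 and 17.1 and 14.6 CPM at E14. Its rise came in a single step, to 649 and 609 CPM at E16 (log2 fold change 5.31 ± 0.31, adjusted p = 3.31e-10), and the E18 value of 750 and 767 CPM was not called against E16 (0.27 ± 0.26, adjusted p = 0.391). Spink4 likewise went from 0.408 and 0.158 CPM to 259 and 239 CPM at E16 (9.53 ± 0.80, adjusted p = 4.56e-08) and was at 157 and 158 CPM at E18 (-0.66 ± 0.51, adjusted p = 0.283). For Spink4 the E18 libraries lay below the E16 ones and for Tff3 above them, in both cases without overlap but short of the test.

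The genes of mucin folding and of regulation had their highest level in the wild-type embryonic intestine at E16. Agr2 had 5.39 and 4.22 CPM at E14, 489 and 446 CPM at E16 and 195 and 192 CPM at E18. It rose at E16 (log2 fold change 6.58 ± 0.79, adjusted p = 2.25e-06), and the lower E18 value did not pass the test (-1.27 ± 0.62, adjusted p = 0.0887). When only the groups compared were fitted, Agr2 was called lower at E18 (-1.32, adjusted p = 1.28e-06). Spdef changed least among the called members, from 9.73 and 7.69 CPM at E14 to 23.7 and 23.3 CPM at E16 (1.43 ± 0.38, adjusted p = 0.00562). Creb3l1 rose from 6.14 and 5.29 CPM to 46.7 and 37.7 CPM (2.88 ± 0.57, adjusted p = 0.000485) and fell to 14.5 CPM in both E18 libraries (-1.54 ± 0.55, adjusted p = 0.0222). Spdef was at 13.7 and 12.6 CPM at E18, which was not called (-0.84, adjusted p = 0.0703). For all 3 genes both E18 libraries lay below both E16 libraries, but only Creb3l1 was called in the main fit. How many of all genes lie apart in this way was not counted. The step from E16 to E18 also changes the preparation, from sorted cells to unsorted villi, and stage and preparation cannot be told apart. Summed enterocyte markers went from 11478 to 12007 CPM at E16 to 59062 to 59785 CPM at E18. Mesenchyme and muscle markers went from 1408 to 1507 CPM to 4.56 to 6.08 CPM, with 9 of 9 lower. Their part in the change, that of Creb3l1 included, was not tested.

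Some of these calls rest on single libraries. The E12 small intestine pair disagreed: Agr2 had 0 and 238 counts, Creb3l1 0 and 72, and Muc2 71 and 0. Without the second E12 library 5 members were called between E12 and E14 in place of 2, with Agr2, Clca1, Fcgbp and Creb3l1 higher and Muc2 lower at E14. Without the second E14 library the rise of Spdef at E16 missed the threshold (adjusted p = 0.0624). Without the second E16 library 2 members in place of 4 were called between E16 and E18, Muc2 and Creb3l1, and the fall of Creb3l1 was lost without the first E16 library or either E18 library (adjusted p = 0.0966 to 0.101).

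**Figure D1:**
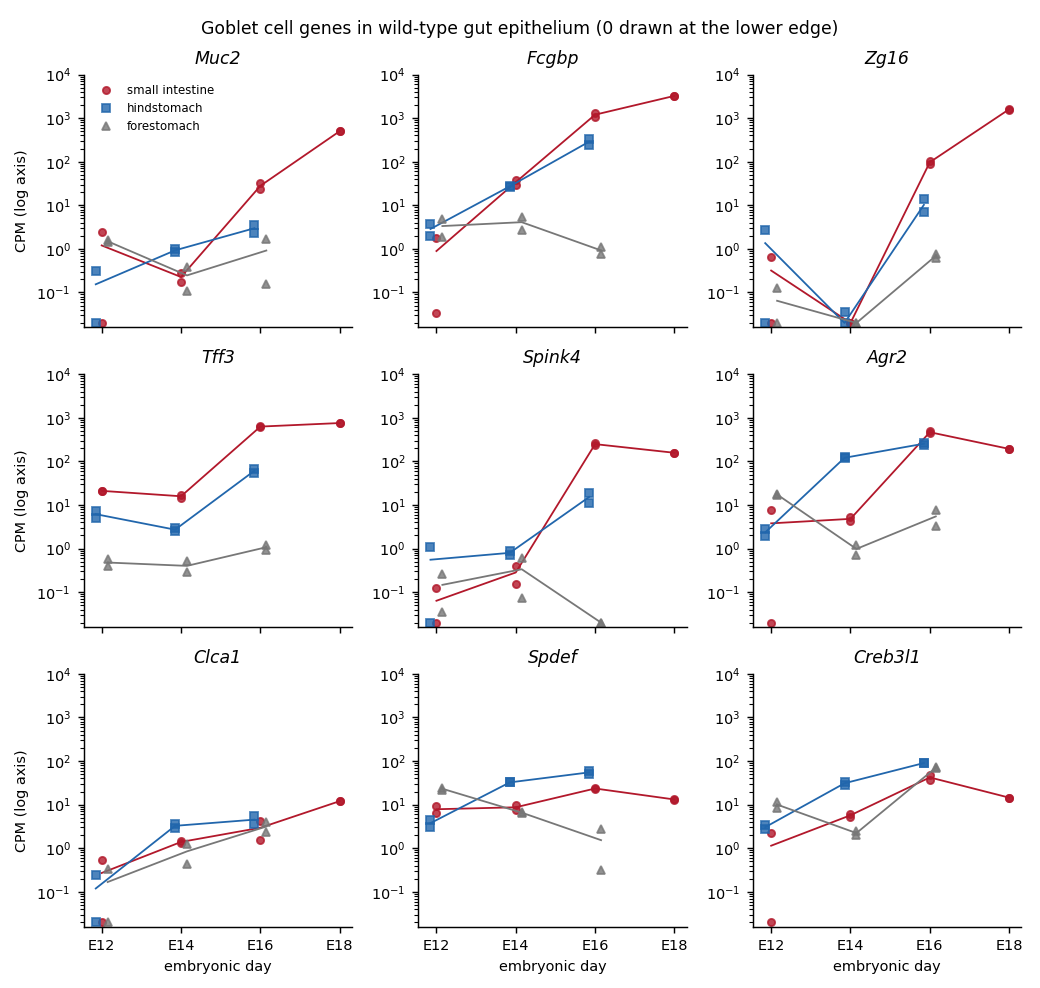
Level of each goblet cell gene in wild-type gut epithelium, with CPM on a log axis against embryonic day; points are libraries (2 per organ and stage), lines join the group means, and values of 0 are drawn at the lower edge. In small intestine 8 of 9 genes rose between E14 and E16, and E18 was sampled for small intestine only.

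The hindstomach had its own course. At E12, where 9.28% of genes were called against the intestine and 5.6% were higher, no member was higher there, and Tff3 alone was lower, with 7.23 and 5.09 CPM against 20.9 and 21.3 CPM (log2 difference -1.78 ± 0.28, adjusted p = 0.000274). That call was lost when only the groups compared were fitted (adjusted p = 0.157). Without the second E12 intestinal library 6 members were called in place of 1, with Fcgbp, Agr2 and Creb3l1 higher and Muc2, Tff3 and Spdef lower in hindstomach. Without the first one Agr2 was called lower instead (-1.70, adjusted p = 0.0015). The E12 hindstomach libraries had Cdx2 at 116 and 160 CPM, beside 153 and 115 CPM in E12 intestine and 12.7 and 6.2 CPM in E14 hindstomach. Gastric mucous and gland markers summed to 0.479 to 0.738 CPM in them, below the 4.53 to 4.94 CPM of E12 intestine. Which tissue these E12 libraries hold was not tested, and each comparison with them takes the label as given. Between E12 and E14, where 17.2% of genes were called, Fcgbp, Clca1, Agr2, Spdef and Creb3l1 rose in hindstomach and Tff3 fell. Agr2 went from 2.77 and 1.92 CPM to 117 and 125 CPM (log2 fold change 5.69 ± 0.78, adjusted p = 2.03e-05), when the intestine was still at 5.39 and 4.22 CPM. Spdef went from 3.14 and 4.4 CPM to 32.6 and 32.3 CPM (3.10 ± 0.41, adjusted p = 1.27e-05), and Creb3l1 from 2.71 and 3.38 CPM to 28.7 and 33.3 CPM (3.35 ± 0.59, adjusted p = 0.000272). At E14 the hindstomach libraries of these 3 genes all lay above the intestinal ones, with log2 differences of 4.64 ± 0.72 for Agr2, 1.89 ± 0.38 for Spdef and 2.44 ± 0.56 for Creb3l1, while Tff3 was lower (-2.54 ± 0.30). Of all genes, 6.83% were called between these groups and 3.49% were higher in hindstomach. The other 5 members were not called there, with log2 differences of 2.15 ± 1.14 for Muc2, 1.26 ± 0.94 for Spink4, -0.31 ± 0.46 for Fcgbp and 1.23 ± 1.09 for Clca1, and with 1 count of Zg16 in all 4 libraries. Gastric mucous and gland markers summed to 0.479 to 0.738 CPM in hindstomach at E12 and 290 to 332 CPM at E14 (4 of 6 tested rose), against 6.86 to 9.39 CPM in intestine at E14. Enteroendocrine markers went from 0.215 to 1.38 CPM to 541 to 553 CPM in hindstomach (5 of 5 rose), and the part of these cells was not tested. The call of Creb3l1 between organs at E14 was lost without either intestinal library (adjusted p = 0.0751 and 0.0689). The fall of Tff3 from E12 to E14 was lost without the first E12 or the first E14 hindstomach library (adjusted p = 0.0831 and 0.0721), and the rise of Clca1 without the first E12 library (adjusted p = 0.0954).

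From E14 to E16, 5 members rose in hindstomach and none fell, with 22% of genes called and 16.5% higher and 5.5% lower. Tff3 reached 54.1 and 68 CPM (log2 fold change 4.49 ± 0.32, adjusted p = 7.19e-09), Spink4 11.4 and 19.1 CPM (4.25 ± 0.70, adjusted p = 0.000155) and Fcgbp 246 and 331 CPM (3.40 ± 0.50, adjusted p = 3.74e-05). Zg16 went from 1 count in 2 libraries to 155 and 313 counts, a ratio of 565 with an exact 95% interval of 101 to 22400 that covers counting error only. Creb3l1 also rose, to 92.2 and 88.2 CPM (1.54 ± 0.53, adjusted p = 0.0311). Muc2 was at 2.35 and 3.61 CPM (1.68 ± 0.84, adjusted p = 0.131) and Agr2 at 244 and 265 CPM (1.07 ± 0.61, adjusted p = 0.188), and neither these nor Spdef (0.76 ± 0.37, adjusted p = 0.12) and Clca1 (0.47 ± 1.07, adjusted p = 0.779) passed the test. When only the groups compared were fitted, Muc2 (adjusted p = 0.0128) and Agr2 (adjusted p = 3.14e-05) were called. In the same step mesenchyme and muscle markers went from 50.6 to 55 CPM in sum to 6977 to 7243 CPM (9 of 9 rose). Nerve markers went from 22.7 to 24.5 CPM to 442 to 449 CPM (4 of 5) and enterocyte markers from 90.7 to 95 CPM to 514 to 530 CPM (5 of 7). Blood and immune markers went from 0.988 to 1.05 CPM to 446 to 556 CPM, with the 4 haemoglobin genes at 0 throughout, and all 3 endothelial markers rose. Their part in the values of the members, Creb3l1 among them, was not tested. The calls of Zg16 (adjusted p = 0.0754 and 0.0765) and Creb3l1 were lost without either E14 hindstomach library, which left 3 of 5 calls. That of Creb3l1 was lost without either E16 library too (adjusted p = 0.091 to 0.172 over the 4). The log2 fold change from E14 to E16 was smaller than in the intestine for Muc2 (difference of log2 fold changes -5.37 ± 1.32, adjusted p = 0.0082), Spink4 (-5.28 ± 1.11, adjusted p = 0.00288) and Agr2 (-5.51 ± 0.93, adjusted p = 0.000384), in a test of the difference that called 13.1% of genes. For the other 6 members this difference did not pass the test, and that of Muc2 was lost without the first E14 hindstomach library or the first E14 intestinal library (adjusted p = 0.0536 and 0.0655).

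At E16 hindstomach and small intestine differed in 6 members, with 25.7% of genes called and 8.1% lower in hindstomach. Of these, Muc2, Tff3, Spink4, Fcgbp and Zg16 were lower in hindstomach, by log2 differences of -2.06 ± 0.47 for Fcgbp to -4.03 ± 0.58 for Spink4, and Spdef was higher (1.23 ± 0.38, adjusted p = 0.0147). Agr2 at 244 and 265 CPM in hindstomach and 489 and 446 CPM in intestine was not called (-0.88 ± 0.61, adjusted p = 0.27), nor was Creb3l1 (1.09 ± 0.53, adjusted p = 0.11). The row Clca1, at 3.55 and 5.52 CPM in hindstomach and 4.33 and 1.58 CPM in intestine, was not called either (0.62 ± 1.08, adjusted p = 0.689). Enterocyte markers were lower in hindstomach in 7 of 7 cases (514 to 530 CPM against 11478 to 12007 CPM in sum), and gastric markers were higher in 6 of 6 tested (559 to 588 CPM against 4.8 to 5.74 CPM). Mesenchyme and muscle markers were higher in 8 of 9 cases and nerve markers in 5 of 5, and the part of these cells was not tested. The call of Zg16 was lost without any 1 of the 4 libraries (adjusted p = 0.0608 to 0.171) and with DESeq2 (adjusted p = 0.179), and that of Spdef without the second hindstomach library or either intestinal library (adjusted p = 0.077 to 0.0892).

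The forestomach followed another course. At E12, where 10.1% of genes were called against the intestine, 5.37% higher and 4.72% lower, Agr2 (17.7 and 17.1 CPM against 0 and 7.58 CPM), Spdef (24.7 and 21.7 CPM against 9.27 and 6.44 CPM) and Creb3l1 (8.49 and 11.6 CPM against 0 and 2.29 CPM) were higher in forestomach, and Tff3 was lower (-5.42 ± 0.37, adjusted p = 8.07e-09). Only Tff3 was called when only the groups compared were fitted, with Agr2 (adjusted p = 0.612), Spdef (adjusted p = 0.118) and Creb3l1 (adjusted p = 0.465) lost. From E12 to E14, with 12.7% of genes called and 5.13% lower, Agr2 (-4.16 ± 0.83), Spdef (-1.82 ± 0.39) and Creb3l1 (-2.17 ± 0.59) fell in forestomach and no member rose. Squamous epithelium markers went from 16.7 to 18.6 CPM in sum to 819 to 854 CPM in the same step (5 of 5 rose), and their part was not tested. At E14 Tff3 (0.513 and 0.289 CPM against 17.1 and 14.6 CPM) and Fcgbp (2.78 and 5.42 CPM against 28.9 and 38.9 CPM) were lower than in intestine and none was higher, with 11.9% of genes called and 7.29% lower. At E16, with 35% of genes called, 18.6% higher and 16.4% lower, 7 members were lower in forestomach than in intestine and none higher. The row Clca1 (0.09 ± 1.12, adjusted p = 0.979) and Creb3l1 were the members not called. Spink4 had 0 counts in both E16 forestomach libraries, which is at least 539-fold lower, and Fcgbp had 7 and 5 counts (-10.34 ± 0.77, adjusted p = 2.14e-09). Against E16 hindstomach 5 members were lower in forestomach, namely Tff3, Spink4, Fcgbp, Agr2 and Spdef, with 20.1% of genes called and 13.8% lower (31.2% of the called genes were higher, and 43.5% with RLE scaling). Agr2 had 7.56 and 3.37 CPM against 244 and 265 CPM there (-5.54 ± 0.81, adjusted p = 3.13e-05), and Spdef 0.309 and 2.76 CPM against 49.6 and 60.5 CPM (-5.16 ± 0.50, adjusted p = 2.42e-07). The Spdef difference ran from -7.46 to -4.32 over the alternatives. Squamous epithelium markers summed to 4097 to 4294 CPM in E16 forestomach and 135 to 142 CPM in E16 hindstomach. Enterocyte markers in forestomach summed to 34.7 to 39.3 CPM at E12, 14.5 to 15.2 CPM at E14 and 18.8 to 21.5 CPM at E16. In intestine they were at 429 to 460 CPM, 722 to 729 CPM and 11478 to 12007 CPM at these stages. The part of these cells was not tested. Without either E12 forestomach library the call of Agr2 at E12 was lost (adjusted p = 0.0999 and 0.111), as it was with DESeq2 (adjusted p = 0.106), and the fall of Creb3l1 from E12 to E14 was lost without the second E12 or either E14 forestomach library (adjusted p = 0.0593 to 0.0932).

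Creb3l1 stood apart in this organ. From E14 to E16 it rose from 1.97 and 2.49 CPM to 68.2 and 72.6 CPM (log2 fold change 4.97 ± 0.64, adjusted p = 3.1e-06), and E16 forestomach was not called against intestine (0.74 ± 0.53, adjusted p = 0.268). Mesenchyme and muscle markers (9 genes, among them collagens and smooth muscle genes) summed to 87.3 to 88.4 CPM in E14 forestomach and 19302 to 24859 CPM, or 1.93 to 2.49% of counts, in E16 forestomach; they were at 6977 to 7243 CPM in E16 hindstomach and 1408 to 1507 CPM in E16 intestine. None of the 9 was at 0 in the E16 forestomach, and their part in the Creb3l1 values was not tested. In the same step, with 37.7% of genes called and 20.8% higher, Spdef fell (-2.09 ± 0.51, adjusted p = 0.0019). Its E16 libraries held 2 and 18 counts, and its fold change ran from -4.39 to -1.25 over the alternatives. Fcgbp fell and Agr2 rose at low counts (22 to 49 counts for Agr2 at E16). Both of these last calls were lost without the second E14 or the first E16 forestomach library, which left 2 of 4 members called, and Fcgbp was lost with RLE scaling (-1.86, adjusted p = 0.0981), which shifted the fold changes of all genes by a median of 0.296 in this step, moved the median fold change from 0 to 0.257 and moved the share of called genes that were higher from 55.2% to 67.6%.

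In the libraries labelled Cdx2-/- with deletion at E10, 5 of the 9 members were called against E16 wild type, a share near the 51.5% of all genes called (23.9% higher and 27.6% lower). Muc2, Tff3 and Fcgbp were lower, Agr2 and Spdef were higher, and Spink4, Clca1, Zg16 and Creb3l1 were not called. The median log2 fold change was -0.43 over the members and -0.10 over all genes.

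Muc2 had 8.75, 7.8 and 1.11 CPM in the 3 E10-deleted libraries against 32.1 and 23.9 CPM in wild type, a log2 fold change of -2.16 ± 0.58 (adjusted p = 0.00307). Fcgbp had 220, 338 and 284 CPM against 1325 and 1072 CPM (-2.09 ± 0.41, adjusted p = 0.000177). In both mucus genes all 3 libraries lay below both wild-type ones, as they did for Tff3, at 164, 340 and 391 CPM against 649 and 609 CPM (-1.08 ± 0.23, adjusted p = 0.000457). Tff3 lay close to the fold threshold: the log2 fold change was -0.78 without the first E10-deleted library and -0.93 with RLE scaling, and the call was lost in both. Agr2, the isomerase that handles mucin, had 1337, 2408 and 1846 CPM against 489 and 446 CPM (2.00 ± 0.60, adjusted p = 0.00681), the highest levels of this gene in any of the 13 embryonic groups. Without the second wild-type library its adjusted p was 0.0583. Spdef had 107, 61.2 and 46.4 CPM against 23.7 and 23.3 CPM (1.61 ± 0.36, adjusted p = 0.000645), with no overlap. Zg16 divided the group, at 243 and 418 CPM in the first 2 libraries and 5.19 CPM (42 counts) in the third, and was not called with all 3 (1.19 ± 0.94, adjusted p = 0.282) but was higher without the third (1.76, adjusted p = 0.0105). Muc2 too was lowest in the third library, which had a total count of 12812432 against 22997638 and 21978170, and the row Clca1 was called lower without it (-3.54, adjusted p = 0.024) or without the second wild-type library (-3.04, adjusted p = 0.0479). With DESeq2 the call of Muc2 was lost (-2.10, adjusted p = 0.113). Spink4, at 84, 255 and 215 CPM, overlapped wild type, and Creb3l1, at 32.3, 37.1 and 34 CPM, lay below it but was not called (-0.29 ± 0.48, adjusted p = 0.614).

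Other cell type markers differed in these libraries too, and TMM scaling factors were 0.542 to 0.651 against 1.09 to 1.1 in E16 wild type. Gastric mucous and gland markers summed to 3909 to 10243 CPM against 4.8 to 5.74 CPM in E16 wild type, with Tff1 at 0 in all libraries of both groups. Squamous markers summed to 525 to 2343 CPM against 0.6 to 0.855 CPM, enterocyte markers to 3122 to 5671 CPM against 11478 to 12007 CPM, and Paneth markers to 15.1 to 429 CPM against 91.8 to 98.7 CPM. Enteroendocrine markers were lower in 5 of 5 cases, at 7.35 to 56.9 CPM against 332 to 399 CPM, and mesenchyme and muscle markers in 7 of 9, at 129 to 202 CPM against 1408 to 1507 CPM. Their part in the values of the goblet cell genes was not tested. Set against E16 hindstomach, with 56.3% of genes called, the E10-deleted libraries had higher Tff3 (2.29 ± 0.26), Spink4 (3.59 ± 0.55), Zg16 (4.44 ± 1.13) and Agr2 (2.87 ± 0.62) and lower Clca1 (-3.10 ± 1.09) and Creb3l1 (-1.39 ± 0.47). Mesenchyme and muscle markers were lower than in hindstomach in 9 of 9 cases (129 to 202 CPM against 6977 to 7243 CPM), nerve markers in 5 of 5 and endothelial markers in 3 of 3, and their part, in the lower Creb3l1 too, was not tested. Fcgbp overlapped its hindstomach values of 246 and 331 CPM (-0.04 ± 0.41, adjusted p = 0.951). The call of Clca1 was lost without the second hindstomach library or the first or second E10-deleted library (adjusted p = 0.0542 to 0.0818), and that of Creb3l1 without either hindstomach library or the second E10-deleted one (adjusted p = 0.0503 to 0.0618). Without the third E10-deleted library Muc2 was called higher than in hindstomach (1.48, adjusted p = 0.0364).

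**Figure D2:**
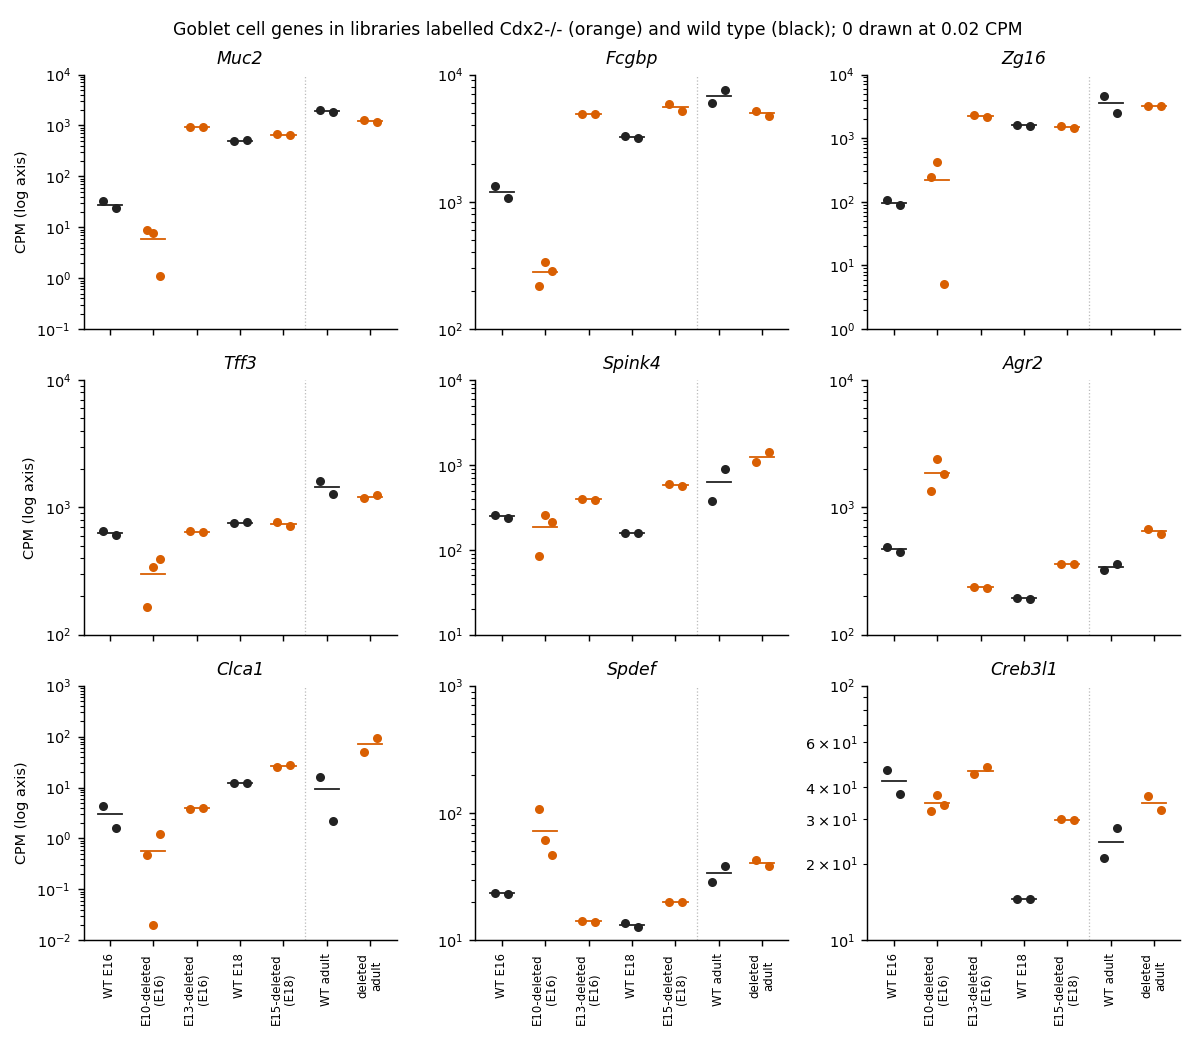
CPM of each goblet cell gene on a log axis in every library labelled Cdx2-/- (orange) and in the wild-type small intestine or ileum of the same stage (black); bars are group means and the adult libraries, right of the dotted line, were scaled apart from the embryonic ones. Muc2 and Fcgbp lie below wild type and Agr2 and Spdef above it in the 3 E10-deleted libraries, and Zg16 is split between 418 and 5.19 CPM.

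The libraries labelled as deleted at E13 had a Cdx2 level close to that of wild type. Against E16 wild type, with 39.5% of genes called and 18.7% higher, Muc2, Fcgbp and Zg16 were higher and no member was lower. Muc2 had 929 and 925 CPM against 32.1 and 23.9 CPM (log2 fold change 5.05 ± 0.67, adjusted p = 3.55e-06), Fcgbp 4874 and 4880 CPM against 1325 and 1072 CPM (2.02 ± 0.47, adjusted p = 0.00118), and Zg16 2323 and 2186 CPM against 106 and 88.7 CPM (4.53 ± 1.14, adjusted p = 0.00298). This comparison and that of E18 with E16 wild type share the E16 libraries. Against E18 wild type only Creb3l1 was called, with 44.8 and 47.9 CPM against 14.5 CPM in both (1.67 ± 0.55, adjusted p = 0.0296) beside 16.1% of all genes, and that call was lost without any 1 of the 4 libraries (adjusted p = 0.0929 to 0.155). Enterocyte markers in the libraries labelled as deleted at E13 summed to 37856 to 38973 CPM, between E16 and E18 wild type. Gastric markers summed to 3187 to 3290 CPM, against 4.8 to 5.74 CPM in E16 and 0.904 to 1.04 CPM in E18 wild type. Mesenchyme and muscle markers were at 22.9 to 24.4 CPM, with 9 of 9 lower than in E16 wild type and 6 of 9 higher than in E18 wild type. Their part was not tested. Compared directly, the E10-deleted libraries were lower than those labelled as deleted at E13 in 6 members, among them Muc2 (-7.21 ± 0.64), Fcgbp (-4.12 ± 0.43) and Zg16 (-3.34 ± 0.92), and higher in Agr2 (2.98 ± 0.63) and Spdef (2.36 ± 0.37), with 57.4% of genes called. Without the first E10-deleted library 5 members were called in place of 8, with Tff3, Spink4 and Clca1 lost. With DESeq2 5 were called as well, with Zg16 (adjusted p = 0.104), Tff3 and Spink4 lost.

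In the libraries labelled as deleted at E15 and taken at E18, 1 member passed the test. Spink4 was called, at 594 and 562 CPM against 157 and 158 CPM (log2 fold change 1.88 ± 0.52, adjusted p = 0.00986), beside 17.5% of all genes; without either E18 wild-type library it was not called (adjusted p = 0.074 and 0.0741), nor with DESeq2 (adjusted p = 0.252). Muc2 had 676 and 643 CPM against 496 and 507 CPM (0.40 ± 0.56, adjusted p = 0.679) and Zg16 1559 and 1469 CPM against 1635 and 1559 CPM (-0.08 ± 0.98, adjusted p = 1). The other 6 members were not called either, with log2 fold changes of -0.04 ± 0.26 for Tff3, 0.77 ± 0.45 for Fcgbp, 0.61 ± 0.38 for Spdef and 1.04 ± 0.54 for Creb3l1, and adjusted p-values of 0.315 for Agr2 and 0.475 for Clca1. Paneth markers summed to 2278 to 2293 CPM in the libraries labelled as deleted at E15 and 268 to 280 CPM in E18 wild type (4 of 6 higher). Gastric markers summed to 35 to 37.7 CPM against 0.904 to 1.04 CPM (4 of 6 tested higher), and blood and immune markers to 8.73 to 9.63 CPM against 242 to 248 CPM (3 of 4 tested lower). Of the 5 enteroendocrine and 7 enterocyte markers, 2 each were lower, and the part of these cells was not tested. The difference from wild type itself differed between the E15 and E13 labels for Muc2 (-4.66 ± 0.84, adjusted p = 0.000146), Zg16 (-4.61 ± 1.46, adjusted p = 0.0161) and Spdef (1.36 ± 0.54, adjusted p = 0.0466), with 37.9% of genes called in that test; these 2 labels are also of different stages and preparations. Without either E16 wild-type library or either library labelled as deleted at E15 only Muc2 was called. Zg16 was lost in these 4 cases (adjusted p = 0.0524 to 0.0632), and with DESeq2 (adjusted p = 0.155). Spdef was lost without any 1 of the 8 libraries (adjusted p = 0.0875 to 0.126).

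**Figure D3:**
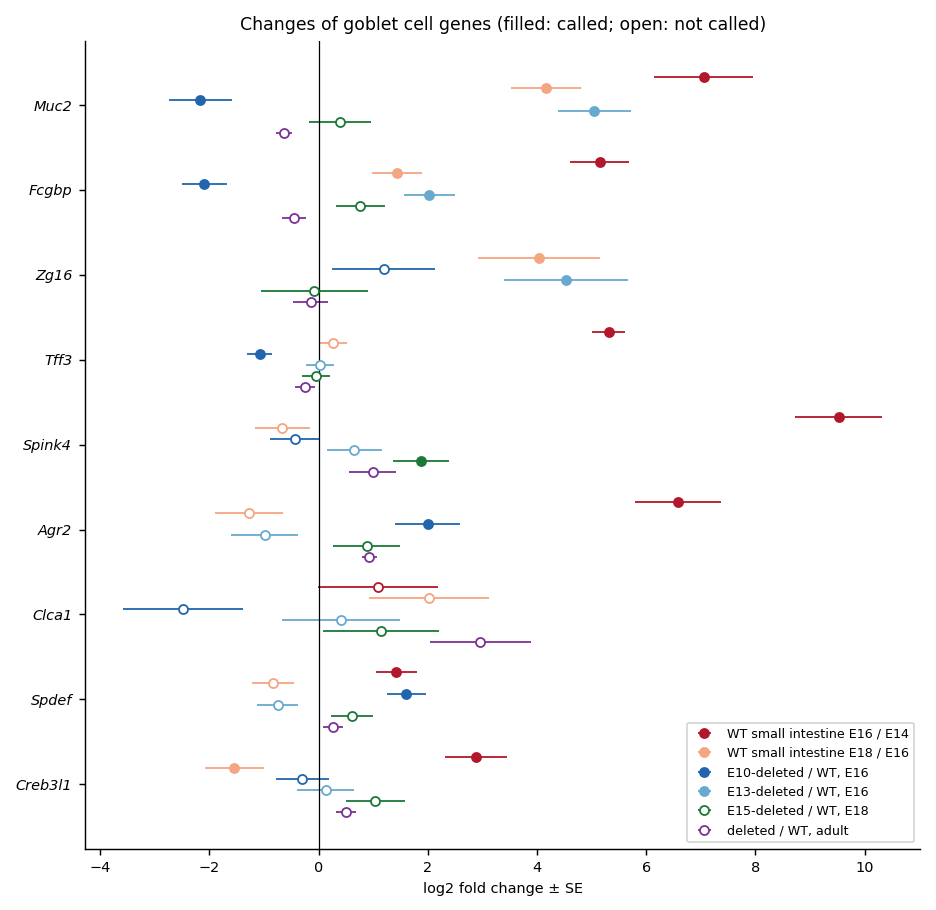
Log2 fold change with its standard error for each goblet cell gene in 2 wild-type steps of development and in the 4 comparisons of libraries labelled Cdx2-/- with wild type; filled points were called. Zg16 between E14 and E16 is left out because both E14 libraries had 0 counts, and the E10-deleted points fall on both sides of 0 while those of E16 against E14 are all above it.

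In adult ileal villi no member was called between the libraries labelled Cdx2-/- and wild type by edgeR, where 20.4% of genes were. With DESeq2 1 was called (Spink4). At an adjusted p below 0.05 without a fold minimum 2 members passed in edgeR, Muc2 and Agr2, beside 4298 of 12444 genes. An unadjusted p below 0.05 was found for 4 members, and the share of all genes at that cut was not counted. Muc2 had 1298 and 1180 CPM against 1986 and 1860 CPM, a log2 fold change of -0.63 ± 0.15 whose adjusted p of 0.0354 came with a fold under the threshold. Agr2 had 675 and 619 CPM against 322 and 356 CPM (0.93 ± 0.14, adjusted p = 0.0104), likewise short of the fold threshold. Spink4 was uneven in wild type, at 377 and 885 CPM, against 1094 and 1414 CPM (0.99 ± 0.43, adjusted p = 0.14). The row Clca1 was uneven too, at 16.2 and 2.21 CPM against 49.2 and 93.9 CPM (2.96 ± 0.92, adjusted p = 0.065), and it was called without the first wild-type library (5.01, adjusted p = 0.0134). Without the second wild-type library 2 members were called, Spink4 (1.73, adjusted p = 0.0257) and Agr2 (1.00, adjusted p = 0.0388), and without the second library labelled Cdx2-/- Agr2 was (1.00, adjusted p = 0.0425). Tff3, Fcgbp, Zg16, Spdef and Creb3l1 differed by log2 fold changes between -0.45 and 0.50. Enteroendocrine markers were lower in 5 of 5 cases, at 26 to 30.2 CPM in sum in the libraries labelled Cdx2-/- against 106 to 184 CPM in wild type. Nerve markers summed to 225 to 329 CPM against 5.27 to 11.2 CPM, with 1 of 5 tested and higher. Gastric markers were higher in 4 of 4 tested, at 5.42 to 11.7 CPM in sum against 0.17 to 0.25 CPM, and blood and immune markers were lower in 2 of 2 tested. Paneth markers summed to 1339 to 1841 CPM against 3081 to 4406 CPM, but of the 6 genes 1 was called higher and 1 lower, with a median log2 fold change of -0.27. The part of these cells was not tested.

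The row Clca3, which stands for the goblet cell gene now named Clca1, behaved unlike the row Clca1. In the intestine it rose from 0.953 and 1.1 CPM at E14 to 824 and 681 CPM at E16 (log2 fold change 9.54 ± 0.41, adjusted p = 1.73e-11) and was at 833 and 834 CPM at E18, where it was not called against E16 (0.15 ± 0.27, adjusted p = 0.677). At E12, however, it had 12143 and 18368 counts in hindstomach, or 374 and 550 CPM, against 0.44 and 0.159 CPM in intestine (10.58 ± 0.45, adjusted p = 1.33e-11), and it fell to 2.65 and 2.59 CPM in E14 hindstomach (-7.46 ± 0.37, adjusted p = 6.15e-11). Summed over the 9 members, the level was 17 to 23.7 CPM in E12 hindstomach and 212 to 227 CPM in E14 hindstomach. This sum is not compared with the level of the row Clca3. Cdx2 was at 116 and 160 CPM in the same E12 hindstomach libraries, beside 153 and 115 CPM in E12 intestine, and at 12.7 and 6.2 CPM in E14 hindstomach. The row Clca3 was at 17.6, 27 and 19.5 CPM in the E10-deleted libraries, lower than in E16 wild type by a log2 fold change of -5.14 ± 0.28 (adjusted p = 1.11e-11), and at 2161 and 2150 CPM in those labelled as deleted at E13 (1.52 ± 0.28, adjusted p = 0.000126). In the adult it fell from 7028 and 9383 CPM to 1400 and 1025 CPM in the libraries labelled Cdx2-/- (-2.76 ± 0.28, adjusted p = 0.00498), while the row Clca1 did not pass the test. The genes of this family are close copies of each other, and how reads shared between them were counted is not given in the sources used here.

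**Figure D4:**
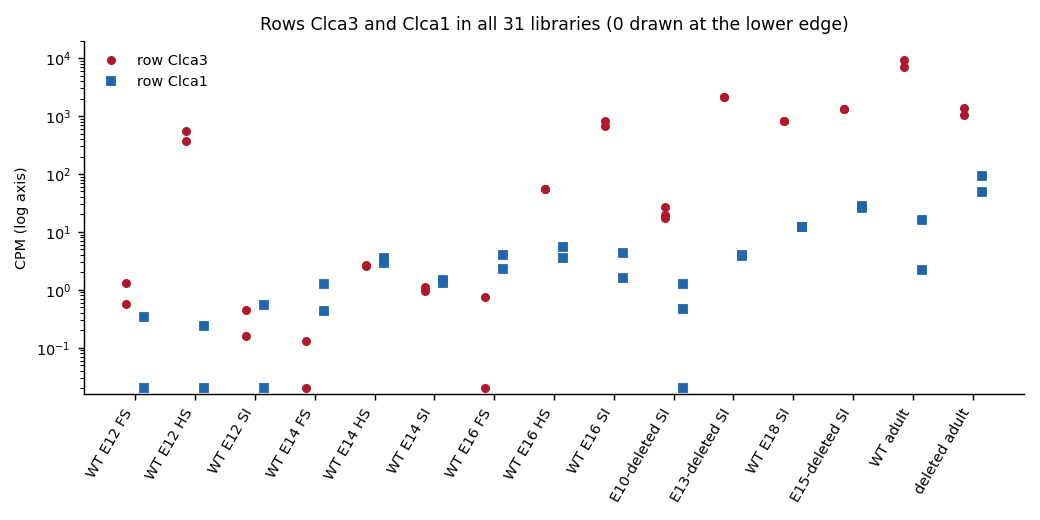
CPM of the rows Clca3 and Clca1 on a log axis in every library of the 15 groups (FS, forestomach; HS, hindstomach; SI, small intestine), with 0 drawn at the lower edge. The row Clca3 is at 374 and 550 CPM in E12 hindstomach, and the row Clca1 is at 49.2 and 93.9 CPM in the adult libraries labelled Cdx2-/-. The adult libraries were made with another kit and scaled apart from the embryonic ones, so levels are not ranked between these sets.

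Over the 13 embryonic groups the members differed in how closely they followed each other. Pearson's r between group means of log2 CPM (n = 13 groups, which share 1 scaling, given as a description) was 0.96 between Fcgbp and Spink4, 0.94 between Muc2 and Zg16 and 0.94 between Spink4 and Zg16. Other genes lay closer to these members. Among the genes tested, Spink4 ranked 26 for Fcgbp, and Zg16 ranked 136 for Muc2 and 42 for Spink4. Spdef correlated with Muc2 at 0.33, with Zg16 at 0.33 and with Agr2 at 0.74, and Creb3l1 correlated with Tff3 at 0.35 and with Agr2 at 0.77. The genes most like Muc2 were Impa1 (r = 0.984), Ptprh, Slc39a4, Rdh7 and Clec2d (0.974). Those most like Agr2 were Phgr1 (0.963), Tspan15, Ern2 (0.934), Lgals12 and Gstm2 (0.928), and those most like Spdef were 1700110K17Rik (0.918), Unc80, Itpka, Homer2 and 1110057K04Rik (0.85).

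Among the 13 embryonic groups, Muc2 was highest in the libraries labelled as deleted at E13 (mean 927 CPM), then in those labelled as deleted at E15 (659 CPM) and in E18 wild type (501 CPM), then in E16 wild type (28 CPM) and the E10-deleted libraries (5.89 CPM), with no overlap between neighbours in this order. The E10-deleted libraries overlapped E16 hindstomach (2.98 CPM), and below E12 forestomach (1.49 CPM) every group overlapped the next. In the same 13 groups Agr2 was instead highest in the E10-deleted libraries (1864 ± 536 CPM, n = 3), before E16 wild-type intestine (467 ± 30.2 CPM). Spdef was also highest in the E10-deleted libraries (71.6 ± 31.7 CPM), whose values overlapped those of E16 hindstomach (55 ± 7.71 CPM) next in order. Creb3l1 was highest in E16 hindstomach (90.2 ± 2.79 CPM) and next in E16 forestomach (70.4 ± 3.07 CPM), without overlap.

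Of 10 regulators of the secretory lineage, 4 rose and 4 fell in intestine from E14 to E16, where 25.6% of all genes were called. Atoh1, which specifies secretory cells, rose from 0.707 ± 0.115 to 8.97 ± 4.22 CPM (log2 fold change 3.67 ± 1.26, adjusted p = 0.0284), Dll1 rose (1.75 ± 0.28), and the crypt and progenitor factor Sox9 fell (-1.94 ± 0.17). In the E10-deleted libraries 4 were higher and 3 lower, beside 51.5% of all genes called, with Hes1, a Notch target that opposes the secretory fate, at 1219 ± 628 CPM against 48.8 ± 5.07 CPM (4.64 ± 0.35, adjusted p = 9.07e-10), Dll1 at 1.65 ± 0.51 CPM against 38.3 ± 2.98 CPM and Atoh1 at 1.55 ± 1.27 CPM against 8.97 ± 4.22 CPM (-2.57 ± 1.07, adjusted p = 0.0453). Of 12 further goblet-associated genes, 11 rose from E14 to E16 in intestine and none fell, beside 13.7% of all genes that rose, among them Retnlb, a secreted resistin-like protein, from 0 counts to 128 ± 4.75 CPM. In the E10-deleted libraries 5 of these 12 were higher and 6 lower, beside 51.5% of all genes called, with Bace2 at 483 ± 185 CPM against 19.2 ± 5.64 CPM (4.66 ± 0.47) and Retnlb at 0.76 ± 0.85 CPM against 128 ± 4.75 CPM. From E16 to E18 2 of the 12 rose and 6 fell, beside 42.1% of all genes called.

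Enzymes of mucin O-glycosylation, which add the sugar chains of mucins, passed the low-count filter in 11 of 12 cases in the embryo. Of these, 3 rose from E14 to E16 in intestine and none fell, beside 13.7% of all genes that rose and 25.6% that were called. In the libraries labelled as deleted at E13, 5 were higher and 1 lower than in E16 wild type (39.5% of all genes called), and in those labelled as deleted at E15, 4 were higher and 2 lower than in E18 wild type (17.5% of all genes called). Gcnt3, which makes branched mucin cores, was higher in all 4 comparisons with wild type. It had 200 ± 26.7 CPM against 32.7 ± 2.67 CPM in the E10-deleted libraries (2.61 ± 0.61) and 443 ± 9.89 CPM against the same wild type under the E13 label (3.76 ± 0.66). It had 371 ± 7.14 CPM against 34.3 ± 3.95 CPM under the E15 label (3.43 ± 0.66) and 875 ± 18.9 CPM against 109 ± 7.04 CPM in the adult (3.01 ± 0.14). St3gal1, a sialyltransferase, was lower in the 3 embryonic comparisons, at 6.3 ± 9.41 CPM, 4.89 ± 0.04 CPM and 1.34 ± 0.22 CPM. The first of these values, of the E10-deleted libraries, has an SD above its mean, so these libraries were uneven. The E10 and E13 comparisons share their wild-type libraries. Among 16 genes of protein folding in the endoplasmic reticulum, where Agr2 and Creb3l1 act, 5 rose and none fell in intestine from E14 to E16, beside 13.7% of all genes that rose, with P4hb at 2297 ± 3.65 CPM against 656 ± 18.5 CPM (1.81 ± 0.14). In the E10-deleted libraries 6 were higher and 5 lower, beside 51.5% of all genes called.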

How the data were processed

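RNA-seq was made from gut epithelium of mouse embryos and from adult ileal villi, with 75 bp single-end reads, per the labels' protocols. Embryonic libraries were made with the SMARTer v4 low-input kit and adult ones with TruSeq V2, and the sets were therefore fitted and scaled apart. The authors deposited raw counts per gene symbol; the submitters' processing notes name STAR 2.5.3a, HTSeq and mm9, and which annotation or strand setting was used is not given in the sources used here. In each adult column 2 blank cells displaced the rows below them, and the columns were closed up before use. A further 2 columns matched no labelled sample and were not used.

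Counts were tested with edgeR 4.0.16 (R 4.3.3), by TMM scaling, a low-count filter (filterByExpr with a minimum of 10) and the quasi-likelihood test, over 17239 genes in 27 embryonic libraries of 13 groups and 12444 genes in 4 adult libraries. Adjusted p-values are Benjamini-Hochberg over all genes tested, and a gene was called at an adjusted p below 0.05 and an absolute log2 fold change of at least 1. In the text, rose, fell, higher and lower are used of called genes unless values are given. Standard errors were derived from the fold change and the F statistic. Fold changes against groups with 0 counts used a floor of 3 counts per library. The pipeline was tested on simulated data. Alternatives were RLE scaling, DESeq2 1.42.0, other filters, a fit of only the groups compared, a replicate block and leaving out each library; where that left 1 library in a group, it was assumed to vary like the others. The 9 members were tested in every comparison, and those not called are given with values only in part. From each further list the up to 3 called genes per direction with the largest change, among those whose groups do not overlap, may be named, and for Muc2, Agr2 and Spdef the 5 genes with the highest correlation of group means of log2 CPM (prior count 2). The members and lists were chosen with earlier results of these data known. Intervals and floors cover counting error only.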

Additional observations from a re-analysis of the deposited data

Results flagged for a closer look

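The difference between forestomach and small intestine was not the same at E16 as at E12, in a test of the difference itself that called 30.8% of genes. The log2 difference at E16 minus that at E12 was -5.26 for Muc2 (adjusted p = 0.0043), -3.77 for Tff3 (adjusted p = 0.000171), -12.18 for Fcgbp (adjusted p = 1.63e-08), -8.6 for Agr2 (adjusted p = 3.89e-06) and -5.49 for Spdef (adjusted p = 1.43e-06). The call of Muc2, which had 71 and 0 counts in the E12 intestinal libraries, was lost when only the groups compared were fitted (adjusted p = 0.145), as was that of Creb3l1 (adjusted p = 0.273). Over the alternatives the value of Muc2 ran from -13.09 to -4.24. For Creb3l1 the difference was -2.37 (adjusted p = 0.026), a call that was lost without the second E12 forestomach library, either E16 forestomach library or the first E16 intestinal library. Without the second E12 intestinal library, which leaves 1 with 0 counts of Agr2 and Creb3l1 and 1 count of Fcgbp, the values were -18.12 for Agr2, -10.18 for Creb3l1 and -16.72 for Fcgbp, and those of Agr2 and Creb3l1 then depend on the prior count. Without the first, that of Creb3l1 was -1.40. For Spink4 the fitted value of -16.8 (adjusted p = 0.00149) depends on the prior count, because both E16 forestomach libraries had 0 counts, and it was lost without the second E12 forestomach library (adjusted p = 0.263). The row Clca3 moved by -12.6 (adjusted p = 3.52e-10).

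The log2 fold change from E14 to E16 was smaller in hindstomach than in intestine, in a test that called 13.1% of genes, for Muc2 (-5.37), Spink4 (-5.28), Agr2 (-5.51) and the row Clca3 (-5.16, adjusted p = 5.3e-07). In hindstomach itself, Muc2 (1.68, adjusted p = 0.131) and Agr2 (1.07, adjusted p = 0.188) were not called in this step in the main fit. With only the groups compared in the fit, Muc2 (1.64, adjusted p = 0.0128) and Agr2 (1.03, adjusted p = 3.14e-05) were called. Agr2 was at 117 and 125 CPM in hindstomach at E14.

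The difference from wild type was not the same under the E15 label as under the E13 label for Muc2 (-4.66), Zg16 (-4.61) and Spdef (1.36). All of these results were picked out because the effect differed between organs or between deletion labels in the test of the difference.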

How the results depend on the processing

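Of 2723 fold changes recomputed under alternatives, 2545 kept their direction and side of the threshold or were called in neither, 120 lost the call, 57 gained it and 1 reversed: Agr2 between hindstomach and intestine at E12 (-0.71, not called) was fitted at 8.81 without the second E12 intestinal library, which leaves the library with 0 counts, so that this value depends on the prior count and is no bound, and at -1.70 without the first. With only the groups compared in the fit, the number of members called became 0 in place of 2 for intestine E14 against E12, 0 in place of 1 for hindstomach against intestine at E12, 1 in place of 4 and 4 in place of 2 for forestomach against intestine at E12 and E14, 3 in place of 1 for the E13 label against E18, 2 in place of 1 for the E15 label, 5 in place of 3 for the hindstomach minus intestine change and 6 in place of 3 for the E15 minus E13 difference. DESeq2 gave 2 in place of 1 for hindstomach against intestine at E12, 3 in place of 5 for E10-deleted against E16, 0 in place of 1 for the E15 label, 5 in place of 8 for E10 against E13 labels and 1 in place of 0 in the adult. The adult count was also 1 without the low-count filter, 1 with all 31 libraries fitted together and 2 without a fold minimum. With 1 library left out at a time, the count was 2 to 5 members for intestine E14 against E12, 2 to 3 for E18 against E16, 3 to 4 for hindstomach E16 against E14, 2 to 3 for forestomach E16 against E14, 1 to 6 for hindstomach against intestine at E12, 0 for the E13 label against E18, 0 to 1 for the E15 label, 5 to 8 for E10 against E13 labels, 0 to 2 in the adult and 1 to 2 for the E15 minus E13 difference. RLE scaling and the filter at 30 moved no count of members by more than 1.5 times. Over all genes, the fit of only the groups compared gave 214 calls in place of 2795 for intestine E14 against E12, 122 in place of 1599 and 2480 in place of 1178 for hindstomach against intestine at E12 and E14, 188 in place of 1740 for forestomach against intestine at E12, 3813 in place of 2255 for the hindstomach minus intestine change and 3532 in place of 5312 for the forestomach difference at E16 minus E12. With 1 library left out, 1762 to 4895 genes were called for intestine E14 against E12, 2467 to 3098 in place of 3796 for hindstomach E16 against E14, 1138 to 3899 and 670 to 853 for hindstomach against intestine at E12 and E14, 1102 to 3980 for forestomach against intestine at E12 and 1254 to 2055 in place of 2544 in the adult. Without a fold minimum, 14 of the comparisons called over 1.5 times as many genes, as in the adult (4298). The cause of these shifts was not tested.

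Same-numbered libraries did not deviate together in the embryo (correlation -0.038 to 0.097), and the numbers are not taken as pairs. With the replicate number as a block, forestomach E16 against E14 had 2 members called in place of 4. In the adult the correlation was -0.152, and a replicate block with crossed numbers, added after the data were seen, called 1 member in place of 0. A fit without the libraries labelled as deleted at E13 and E15, also added later, gave 2 in place of 4 for forestomach E16 against E14. Used as deposited, the adult columns would have given Tff3 counts of 0, 0, 33 and 15 in place of 25918, 22383, 28568 and 17397. Some groups held counts under about 20, as the E10-deleted libraries did for the row Clca1 (17). That row was still called against E16 hindstomach (-3.10), a call that was lost when single libraries were left out. How far low counts limit the calls was not tested.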
